A study of Mus musculus with 15 samples.

Results

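The Eph receptors and their ephrin ligands were followed in mouse small intestinal organoids, which are epithelial cultures grown from crypts. The set comprised 10 genes of the 43629 in the count table, chosen by name from the family. It holds 7 receptors (Ephb2, Ephb3, Ephb4, Ephb6, Epha1, Epha2 and Epha4) and 3 ligands (Efnb1, Efnb2 and Efna1), and all 10 were matched. The other 12 mouse family genes are given after them.

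RNA of 13 organoid cultures on a mixed C57B6/129 background was compared. WT comprised 5 libraries in ENR medium, which contains EGF, Noggin and the R-spondin RSPO1, a secreted enhancer of Wnt signalling. Of these, 4 were from Apc flox/flox lines numbered 1, 2, 5 and 6 with both alleles intact, and 1 came from R26-rtTA/c3GIC9 transgenic organoids that never received doxycycline and so made no Cas9 (dox-naive). The 4 Apc libraries were the Apc delta/delta state of lines 1, 2, 5 and 6, without the Wnt pathway inhibitor Apc, in EN medium, which lacks RSPO1. P-Rspo3 comprised 4 libraries, labelled 15d, 4d, M and F, of Ptprk-Rspo3 cultures in EN medium, in which an inversion places Rspo3 behind the Ptprk promoter. The P-Rspo3 cultures were polyclonal, dox-treated transgenic organoids that had grown without RSPO1, so they differ from most WT libraries in their line and from all of them in medium. Genotype and medium cannot be told apart in either comparison with WT. Apc and P-Rspo3 shared EN medium but came from different lines, the P-Rspo3 ones transgenic and dox-treated. Genotype and line cannot be told apart between them. The labels conflict for 2 further libraries, which entered no group.

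The total count was 28902729 to 35528495 per library, and no sequencing batch is named. Rspo3 had 539 to 1079 counts in P-Rspo3, 7 to 57 in Apc and at most 1 in WT. Counts of the whole Apc gene, 9265 to 10953 in Apc and 4046 to 6810 in WT, do not check the deletion. The summed FPKM of 6 epithelial markers was 1952 to 2268 in WT, 2035 to 2451 in Apc and 1799 to 2194 in P-Rspo3, and the sum of 8 mesenchymal markers stayed under 1 in every grouped library, with Col1a1, Col1a2, Col3a1 and Dcn each under 0.1. FPKM, fragments scaled to gene length and library size, is the unit for levels below.

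Eph receptors are receptor tyrosine kinases that are activated by ephrins on the surface of neighbouring cells. The A receptors bind mainly the lipid-anchored ephrin-A ligands and the B receptors mainly the ephrin-B ligands, which span the membrane and can themselves signal back into their own cell. In the intestine, Wnt signalling supports the expression of EphB2 and EphB3 in the crypt, the ephrin-B ligands are found towards the villus, and repulsion between the cells that carry them keeps crypt and villus cells apart and Paneth cells at the crypt base. In bulk libraries such as these, fewer cells of a type and less RNA per cell cannot be told apart.

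The promoters of 4 receptors are shown because 3 of them rose the most in Apc organoids and the fourth, Ephb2, is the receptor best known as a Wnt target of the crypt. Each is the 300 bases from 250 before to 50 after the RefSeq start on GRCm38.p6, read 5′ to 3′ on the strand of the gene. Capitals mark a match to the TCF/LEF heptamers, CTTTGAA or CTTTGAT or CTTTGTA or CTTTGTT, the DNA words of the factors at the end of the Wnt pathway, searched on both strands.
Epha2, chr4:141300971-141301270, plus strand: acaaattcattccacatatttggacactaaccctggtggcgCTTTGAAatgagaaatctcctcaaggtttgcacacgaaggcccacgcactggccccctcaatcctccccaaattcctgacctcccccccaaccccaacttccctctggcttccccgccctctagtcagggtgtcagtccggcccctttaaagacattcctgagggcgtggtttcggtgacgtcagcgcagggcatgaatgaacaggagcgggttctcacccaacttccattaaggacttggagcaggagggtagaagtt
Epha4, chr1:77515039-77515338, minus strand: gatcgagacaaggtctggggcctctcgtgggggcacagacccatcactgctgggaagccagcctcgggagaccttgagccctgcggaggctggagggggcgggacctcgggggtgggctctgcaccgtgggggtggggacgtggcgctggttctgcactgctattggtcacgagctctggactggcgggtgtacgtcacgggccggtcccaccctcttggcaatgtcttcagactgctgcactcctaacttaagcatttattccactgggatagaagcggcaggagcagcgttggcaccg
Ephb6, chr6:41605261-41605560, plus strand: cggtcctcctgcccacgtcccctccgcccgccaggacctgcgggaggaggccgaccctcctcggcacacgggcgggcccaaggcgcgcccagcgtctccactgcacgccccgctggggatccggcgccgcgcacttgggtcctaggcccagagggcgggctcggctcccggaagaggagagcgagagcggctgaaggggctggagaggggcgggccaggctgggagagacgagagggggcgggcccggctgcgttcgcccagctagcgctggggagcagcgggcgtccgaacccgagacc
Ephb2, chr4:136835963-136836262, minus strand: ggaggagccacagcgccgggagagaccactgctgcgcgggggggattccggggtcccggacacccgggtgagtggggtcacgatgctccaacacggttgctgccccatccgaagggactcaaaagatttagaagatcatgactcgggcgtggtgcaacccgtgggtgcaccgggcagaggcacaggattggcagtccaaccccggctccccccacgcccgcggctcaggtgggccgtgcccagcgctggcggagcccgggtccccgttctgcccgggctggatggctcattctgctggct

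The Epha2 promoter held CTTTGAA on the gene's strand, with its first base 209 bases before the start. It was the only match in the 11 RefSeq promoter windows of the 10 genes, where Efna1 has a pair of starts. Of all 32851 promoters of this length in the table, 5544, or 16.88%, held at least 1 of the heptamers. A match is a description of the letters and not evidence of binding, and the absence of a match says only that these letters are not in the window. The windows were GC-rich, from 54.7% for Epha2 to 76.3% for Ephb6, where the median of all promoters was 52.7%.

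The question was how receptor and ligand transcripts differ between WT organoids, organoids without Apc and organoids that make their own Rspo3. In Apc organoids 3 receptors rose by more than 1 on the log2 scale against WT: Ephb6, from near 0 counts, Epha4, 12.4-fold, and Epha2, 3.96-fold. Over the same comparison 1 receptor and 2 ligands fell, namely Epha1, Efna1 and Efnb1. The crypt receptors Ephb2 and Ephb3 were 1.62-fold and 1.47-fold higher, which is under the fold threshold. In P-Rspo3 organoids no member was called against WT, where only 0.00625% of all genes were called higher and 0% lower.

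A gene was called when its adjusted p was under 0.05 by edgeR's quasi-likelihood test (Benjamini-Hochberg adjustment over all genes tested) and its log2 fold change lay beyond 1 or -1. Adjusted p below are from this test, and log2 fold changes (log2FC) are from the same fits and are given with their standard error (SE). In the comparison of Apc with WT all 10 members were tested, of which 3 were called higher, where 12.2% of the 16749 genes tested were, and 3 lower, where 14.1% were. Of those called higher, Ephb6 reached the 0.1 FPKM needed for testing only in Apc libraries, so it could only come out higher. By the adjusted p alone, 6 members were higher (30.0% of all genes) and 4 lower (29.0%). FPKM lay above the whole WT range in every Apc library for 6 members (37.9% of all genes) and below it for 3 (16.6%). The median log2FC of the 10 was 0.38, beside 0.001 over all genes.

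**Figure D1:**
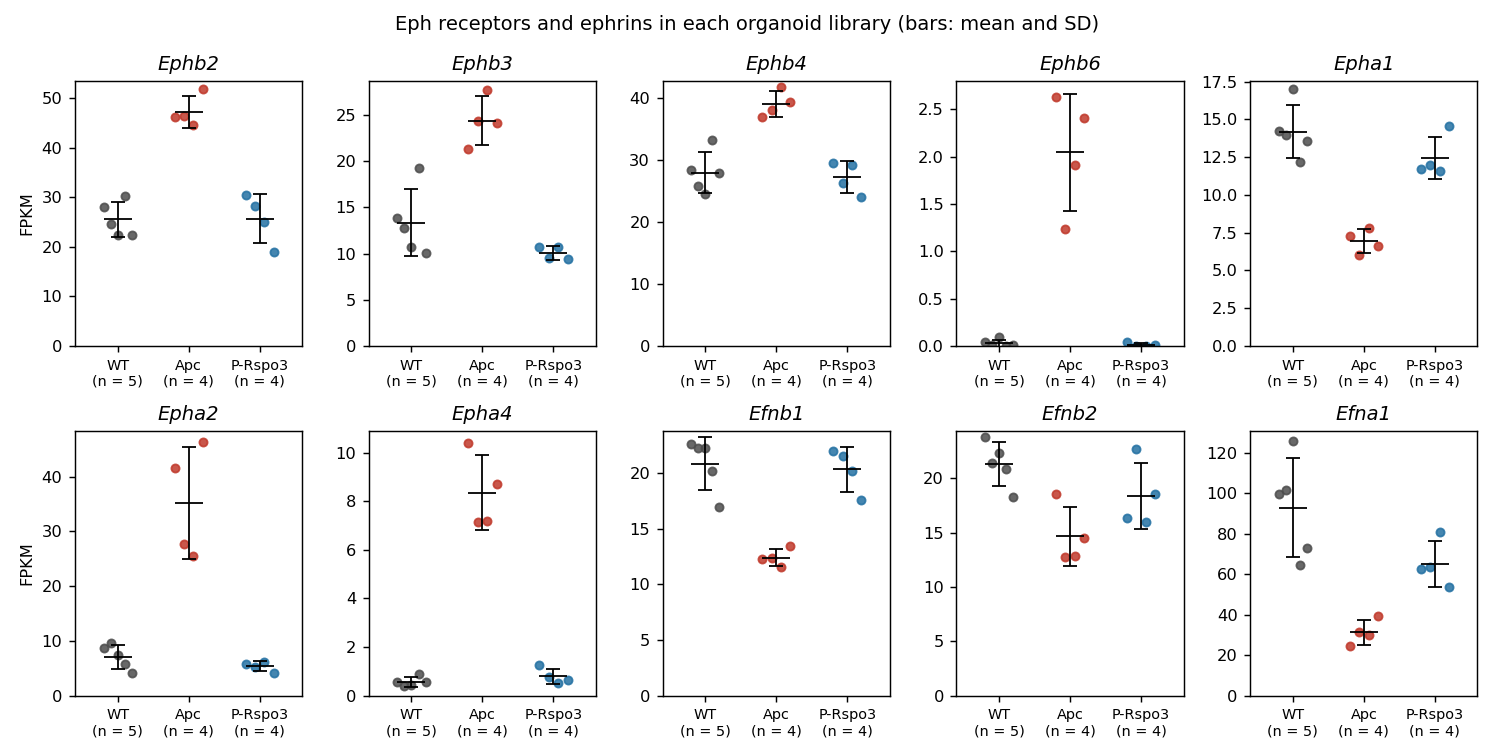
FPKM of each of the 10 genes (vertical axes, linear, from 0) in the 5 WT, 4 Apc and 4 P-Rspo3 libraries, 1 point per library, with the mean and SD of each group. The Apc points sit apart from WT in every panel but that of Efnb2, where Apc replicate 1, with 18.5, lies within the WT range of 18.3 to 23.8, and the P-Rspo3 points overlap WT in every panel.

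Among the B receptors, Ephb2 (ENSMUSG00000028664, chromosome 4, 136647539 to 136835988, minus strand, GRCm38), the receptor that grades from crypt to villus, was the most abundant member in all 4 Apc libraries. Its FPKM was 28.1, 24.6, 22.4, 30.4 and 22.3 in WT (replicates 1, 2, 5, 6 and the dox-naive culture, in this order throughout), 46.2, 46.3, 44.5 and 51.8 in Apc (replicates 1, 2, 5 and 6) and 30.5, 28.2, 25.0 and 19.1 in P-Rspo3 (15d, 4d, M and F). Every Apc library lay above every WT and P-Rspo3 library, and WT and P-Rspo3 overlapped. The log2FC was 0.70 (SE 0.08, adjusted p = 1.86e-05) in Apc against WT and 0.72 (SE 0.10, adjusted p = 0.00019) in Apc against P-Rspo3.

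Ephb3 (ENSMUSG00000005958, chromosome 16, 21204755 to 21223305, plus strand), the partner of Ephb2 that holds Paneth cells at the crypt base, had an FPKM of 13.9, 12.8, 10.7, 19.3 and 10.1 in WT, 21.3, 24.3, 27.7 and 24.2 in Apc and 10.7, 9.50, 10.7 and 9.38 in P-Rspo3. Apc did not overlap the other groups, with WT replicate 6 the highest WT library at 19.3 and Apc replicate 1 the lowest Apc library at 21.3, whereas WT and P-Rspo3 overlapped. Ephb3 was higher in Apc than in WT, with a log2FC of 0.56 (SE 0.14, adjusted p = 0.00628), and higher than in P-Rspo3 with 0.95 (SE 0.09, adjusted p = 2.17e-05). The latter value stands just under the fold threshold and passed it in 3 of 17 alternatives, among them limma on log2(FPKM + 1), with 1.19. Without Apc replicate 1 it was 1.02.

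Ephb4 (ENSMUSG00000029710, chromosome 5, 137350109 to 137378669, plus strand), a receptor of ephrin-B2 best known from blood vessels, came second among the receptors in Apc by mean FPKM, although Epha2 exceeded it in Apc replicates 1 and 6. Its FPKM was 28.5, 25.9, 24.5, 33.2 and 27.9 in WT, 36.9, 38.0, 41.9 and 39.3 in Apc and 29.5, 26.2, 29.2 and 24.1 in P-Rspo3. The FPKM ranges of Apc and WT did not overlap, yet after TMM scaling the log2FC was only 0.20 (SE 0.07, adjusted p = 0.0344). This p was at or over 0.05 in 9 of 19 alternatives, with a range of 0.000876 to 0.0989, and with the line as a replicate block it was 0.0958. The blocked fit also leaves out the dox-naive WT library, which has no line number, and without that library alone it was 0.0588. Of its exons, 33 bases (0.711%) overlap Zan on the opposite strand.

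Ephb6 (ENSMUSG00000029869, chromosome 6, 41605482 to 41620509, plus strand), whose kinase domain is inactive, was all but undetected outside Apc. It had 4, 1, 1, 1 and 1 counts in WT, 297, 185, 215 and 316 in Apc and 1, 0, 0 and 1 in P-Rspo3. In FPKM the Apc libraries had 2.63, 1.24, 1.92 and 2.41, and no other grouped library exceeded 0.0912. CPM are counts scaled to the library total after TMM scaling of that total. The ratio of summed CPM was 121 against WT (95% interval for counting error 60.9 to 280) and 390 against P-Rspo3 (108 to 3226). The fitted log2FC was 6.80 against WT (SE 0.35, adjusted p = 8.49e-08), and this fitted size depends on the prior count. Even in Apc, Ephb6 remained the least abundant of the 10 members.

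The A receptors moved in opposite directions. Epha2 (ENSMUSG00000006445, chromosome 4, 141301240 to 141329384, plus strand), a widely expressed epithelial receptor of ephrin-A1, had an FPKM of 8.77, 9.56, 7.41, 5.87 and 4.10 in WT, 41.5, 27.7, 25.5 and 46.3 in Apc and 5.87, 5.30, 6.20 and 4.20 in P-Rspo3. The lowest Apc library, replicate 5, exceeded the highest WT library, replicate 2, although Apc replicates 1 and 6 stood well above 2 and 5. Epha2 rose in Apc with a log2FC of 1.98 against WT (SE 0.25, adjusted p = 4.55e-05) and 2.43 against P-Rspo3 (SE 0.20, adjusted p = 9.41e-06). It is the member whose printed promoter carries the heptamer in capitals.

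Epha4 (ENSMUSG00000026235, chromosome 1, 77367185 to 77515088, minus strand), a receptor that binds ephrins of both classes, had an FPKM of 0.558, 0.415, 0.433, 0.906 and 0.556 in WT, 10.4, 7.14, 7.17 and 8.71 in Apc and 1.26, 0.753, 0.536 and 0.632 in P-Rspo3. All WT libraries were under 1, and the Apc libraries lay several-fold above P-Rspo3 15d, the highest of the others. It rose in Apc with a log2FC of 3.64 against WT (SE 0.24, adjusted p = 4.75e-07) and 3.11 against P-Rspo3 (SE 0.22, adjusted p = 4.27e-06).

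Epha1 (ENSMUSG00000029859, chromosome 6, 42358487 to 42373268, minus strand), the founding member of the receptor family, fell. Its FPKM was 14.3, 14.0, 17.0, 12.2 and 13.6 in WT, 7.28, 6.05, 7.83 and 6.65 in Apc and 11.7, 12.0, 11.6 and 14.5 in P-Rspo3, so that every Apc library was below every other one. The log2FC was -1.33 against WT (SE 0.12, adjusted p = 5.24e-06) and -1.14 against P-Rspo3 (SE 0.13, adjusted p = 5.98e-05). On the scale of limma on log2(FPKM + 1) it was -0.93 against WT and -0.76 against P-Rspo3, both short of the fold threshold. With log2(FPKM + 0.1) the latter was -0.83, so that Epha1 was called against P-Rspo3 in 15 of 17 alternatives. Of its exons, 236 bases (6.01%) overlap Zyx on the opposite strand, and the strand setting of the counting is not given in the sources used here.

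With Epha2 up and Epha1 down, the ratio of their FPKM was 0.504 ± 0.150 (SD, n = 5) in WT, 5.12 ± 1.58 (SD, n = 4) in Apc and 0.442 ± 0.109 (SD, n = 4) in P-Rspo3. It ran from 0.303 to 0.683 in WT and from 3.26 to 6.96 in Apc, so Epha1 exceeded Epha2 in every WT library and Epha2 exceeded Epha1 in every Apc library.

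All 3 ligands were lower in Apc than in WT. Efna1 (ENSMUSG00000027954, chromosome 3, 89271733 to 89281142, minus strand), the main ligand of Epha2, was the most abundant member in every WT and P-Rspo3 library. Its FPKM was 99.8, 102, 126, 64.7 and 72.9 in WT, 24.4, 31.5, 30.2 and 39.4 in Apc and 62.4, 63.6, 80.9 and 53.6 in P-Rspo3. WT replicate 5 was high and replicate 6 low, and no Apc library reached the lowest WT or P-Rspo3 library. Efna1 fell with a log2FC of -1.86 against WT (SE 0.22, adjusted p = 3e-05) and -1.31 against P-Rspo3 (SE 0.15, adjusted p = 6.8e-05).

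Efnb1 (ENSMUSG00000031217, chromosome X, 99136130 to 99148991, plus strand), an X-linked ligand of Ephb2 and Ephb3, had an FPKM of 22.6, 22.2, 22.3, 20.2 and 16.9 in WT, 12.3, 12.3, 11.6 and 13.5 in Apc and 22.0, 21.6, 20.2 and 17.6 in P-Rspo3. The Apc libraries spanned a narrow range below all the others. The log2FC was -1.03 against WT (SE 0.09, adjusted p = 2.87e-06), barely beyond the fold threshold, and it was -0.997 without WT replicate 2, which ends the call. Against P-Rspo3 it was -0.93 (SE 0.07, adjusted p = 3.9e-06), not called.

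Efnb2 (ENSMUSG00000001300, chromosome 8, 8617434 to 8661242, minus strand), the preferred ligand of Ephb4, had an FPKM of 23.8, 21.4, 22.3, 20.8 and 18.3 in WT, 18.5, 12.7, 12.8 and 14.5 in Apc and 16.3, 22.6, 16.0 and 18.5 in P-Rspo3. Here the groups overlapped, since Apc replicate 1 exceeded the dox-naive WT library and 3 of the P-Rspo3 libraries. Efnb2 was lower in Apc, with a log2FC of -0.85 against WT (SE 0.14, adjusted p = 0.000271) and -0.64 against P-Rspo3 (SE 0.16, adjusted p = 0.00814), and was called in neither. Without Apc replicate 1 the first value was -1.01, which would be called. On log2(FPKM + 1) the second was -0.31 with limma (adjusted p = 0.0964), over a range of adjusted p from 0.00092 to 0.0964 in 17 alternatives.

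**Figure D2:**
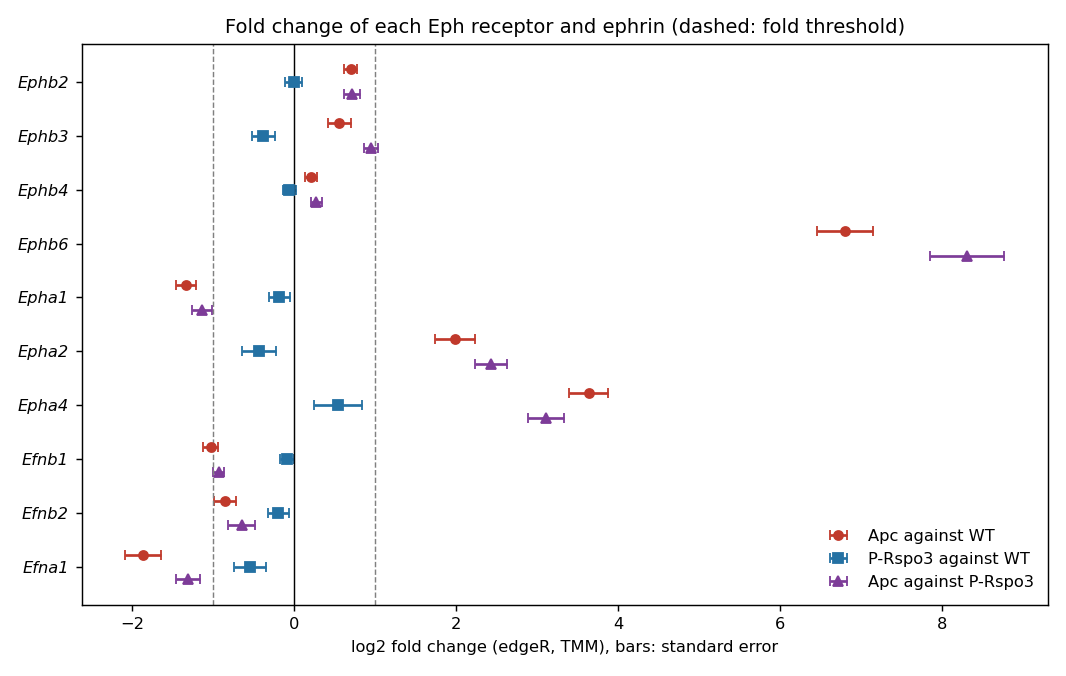
The log2 fold change (horizontal axis) of each gene in the 3 comparisons, from edgeR with TMM scaling, with bars for the standard error and dashed lines at 1 and -1. The P-Rspo3 against WT squares sit between -0.54 and 0.54, while Ephb6, Epha4 and Epha2 lie to the right of the line at 1 in both comparisons of Apc; Ephb6 has no square because it was filtered out there.

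The balance of B receptors to their ligands was described by the summed FPKM of Ephb2, Ephb3, Ephb4 and Ephb6 over that of Efnb1 and Efnb2. It was 1.52, 1.45, 1.29, 2.02 and 1.71 in WT, 3.47, 4.39, 4.76 and 4.21 in Apc and 1.85, 1.45, 1.79 and 1.46 in P-Rspo3. The Apc libraries lay above all the others, and WT and P-Rspo3 overlapped. The group values were 1.60 ± 0.279 (SD, n = 5), 4.21 ± 0.539 (SD, n = 4) and 1.64 ± 0.215 (SD, n = 4). Receptor FPKM summed to 66.9 ± 10.1 (SD, n = 5) in WT and 113 ± 5.04 (SD, n = 4) in Apc, and ligand FPKM to 42.1 ± 4.36 (SD, n = 5) and 27.0 ± 2.94 (SD, n = 4). As a sum over chosen genes, the ratio was given no test.

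The ratio of Epha2 to its ligand Efna1 was 0.0776 ± 0.0184 (SD, n = 5) in WT, 1.15 ± 0.398 (SD, n = 4) in Apc and 0.0831 ± 0.00789 (SD, n = 4) in P-Rspo3. It ran from 0.0563 to 0.0942 in WT and from 0.846 to 1.71 in Apc, with Apc replicate 1 the highest.

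**Figure D3:**
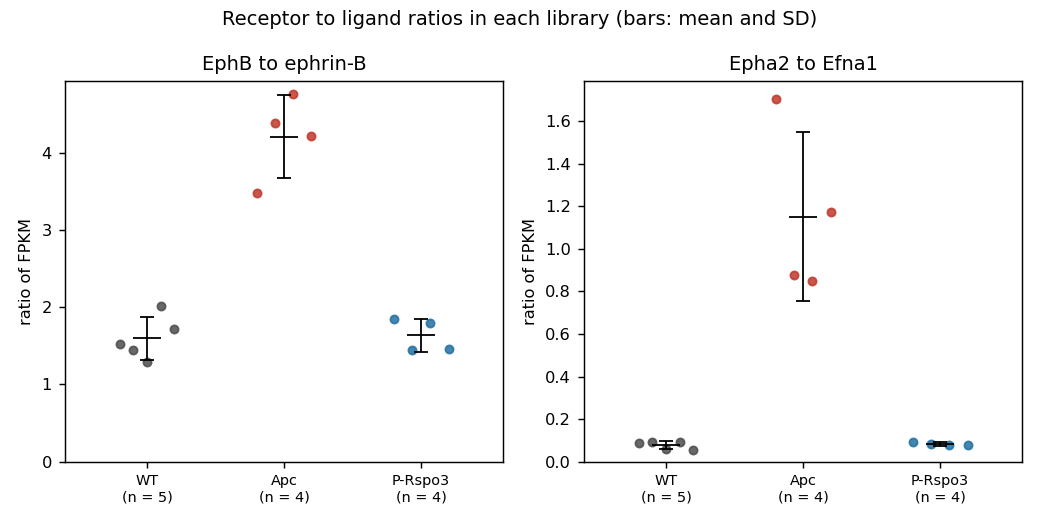
Ratios of summed FPKM in each library (vertical axes, linear, from 0), for the B receptors over the ephrin-B ligands and for Epha2 over Efna1, with the mean and SD of each group. All 4 Apc points, from 3.47 to 4.76 and from 0.846 to 1.71, lie above every WT and P-Rspo3 point.

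The order of the members by level differed accordingly. In WT it ran, by mean FPKM, Efna1 (92.9), Ephb4 (28.0), Ephb2 (25.6), Efnb2 (21.3), Efnb1 (20.8), Epha1 (14.2), Ephb3 (13.4), Epha2 (7.14), Epha4 (0.574) and Ephb6 (0.0304). Over the 5 libraries, the ranges of neighbours overlapped for each step from Ephb4 down to Ephb3. By range, only Efna1 at the top and Epha2, Epha4 and Ephb6 at the bottom stood clear of their neighbours. Within libraries, Ephb4 exceeded Ephb2, Ephb2 exceeded Efnb2 and Efnb1 exceeded Epha1 in all 5. Efnb2 exceeded Efnb1, and Epha1 exceeded Ephb3, in 4 of 5. In Apc it ran Ephb2 (47.2), Ephb4 (39.0), Epha2 (35.2), Efna1 (31.4), Ephb3 (24.4), Efnb2 (14.6), Efnb1 (12.4), Epha4 (8.35), Epha1 (6.95) and Ephb6 (2.05). There Ephb4, Epha2, Efna1 and Ephb3 overlapped in range each with the next, as did Efnb2 with Efnb1 and Epha4 with Epha1. Within the Apc libraries, Efna1 exceeded Ephb3 and Efnb2 exceeded Efnb1 in all 4, and Epha4 exceeded Epha1 in 3. Ephb4 exceeded Epha2, and Epha2 exceeded Efna1, in 2 of 4. In P-Rspo3 the first was again Efna1, with 65.1 ± 11.4 (SD, n = 4), and Epha2, Epha4 and Ephb6 were again the last.

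Since same-numbered WT and Apc libraries came from the same line, each member could also be followed within a line, as the log2 CPM after TMM scaling of Apc minus that of WT. Ephb2 was higher in all 4 lines, by 0.54 to 0.81, Ephb3 by 0.15 to 0.91, Epha2 by 1.25 to 2.66, Epha4 by 2.98 to 4.32 and Ephb6 by 5.30 to 6.38. Ephb4 was higher in 3 lines, by up to 0.42, with -0.01 in line 6. The ligands were lower in every line, with differences of -2.41 to -0.96 for Efna1, -1.20 to -0.83 for Efnb1 and -1.15 to -0.56 for Efnb2, and so was Epha1, with -1.50 to -1.10. Line 6 had the smallest difference for Ephb2, Ephb3, Ephb4, Epha1, Epha4, Efnb1 and Efna1 and the largest for Epha2 and Ephb6.

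**Figure D4:**
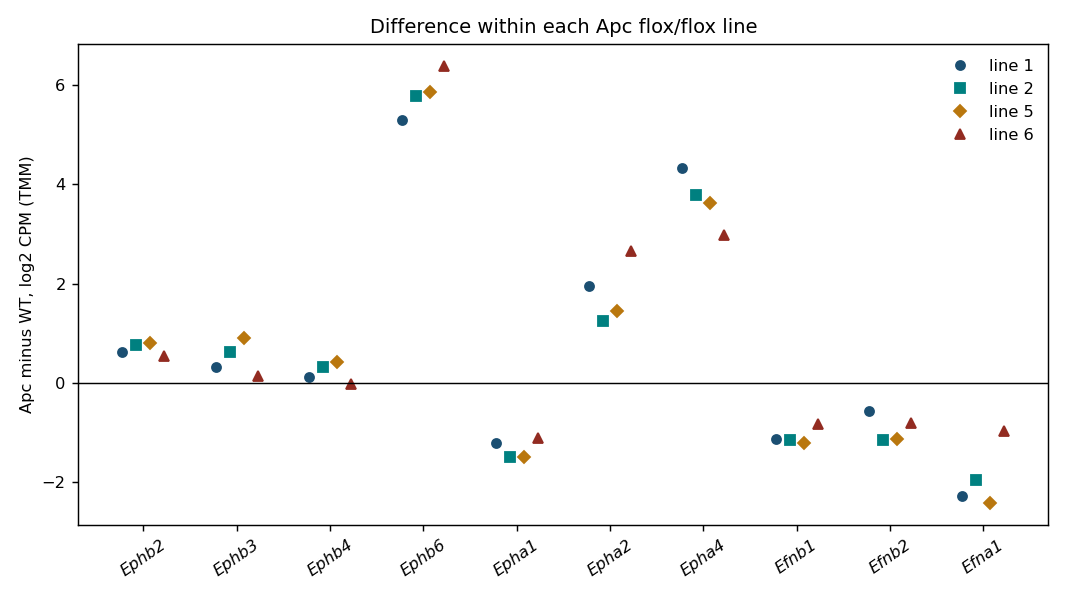
Apc minus WT in log2 CPM after TMM scaling (vertical axis) for each gene within lines 1, 2, 5 and 6, 1 symbol per line, with no error since each symbol is a single pair of libraries. Of the 10 genes, 9 lie on the same side of 0 in all 4 lines, and Ephb4 in line 6, at -0.01, is at the line of no difference.

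In P-Rspo3 against WT, 9 members were tested, since Ephb6 was under the filter on low values. edgeR called 0 of them higher, where 0.00625% of the 15992 genes tested were called, and 0 lower, where 0% were. Over all genes 2159 had an unadjusted p under 0.05 there, and DESeq2 called 55 genes higher and 173 lower, none of them a member. For no member did the FPKM ranges stand apart above (2.06% of all genes) or below (2.08%). Of the 9 log2FC, 1 was positive and 8 negative, with a median of -0.18 beside 0.004 over all genes.

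The values closest to a difference were those of Efna1, with a log2FC of -0.54 (SE 0.20, adjusted p = 0.272), and Ephb3, with -0.38 (SE 0.14, adjusted p = 0.279). Their unadjusted p were 0.0212 and 0.0232, and both fail the correction. Epha4 had 0.54 (SE 0.30, adjusted p = 0.458) and Epha2 -0.43 (SE 0.21, adjusted p = 0.413). Ephb2 had -0.0034 (SE 0.11, adjusted p = 1), Ephb4 -0.06 (SE 0.08, adjusted p = 0.797) and Efnb1 -0.08 (SE 0.09, adjusted p = 0.725). Across the alternatives no member had an adjusted p under 0.05 in this comparison, also without the dox-naive WT library, where 166 genes were called higher and 100 lower. A p that misses the threshold does not show that the groups were alike.

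Apc and P-Rspo3, which were kept in the same medium but came from different lines, were compared directly. Of the 10 members, edgeR called 3 higher in Apc (Ephb6, Epha4 and Epha2), where 13.4% of 16456 genes were called, and 2 lower (Efna1 and Epha1), where 13.3% were. Here too Ephb6 entered the test only through the Apc libraries and could only come out higher. By the adjusted p alone 6 were higher (28.7% of all genes) and 4 lower (27.7%), and the FPKM ranges stood apart for 6 above (38.0%) and 3 below (17.5%). The median log2FC was 0.50, beside 0.001 over all genes. This comparison shares the Apc libraries with that against WT, so the values of both are given for each member above and no agreement between them is counted.

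The 12 other family genes were mostly silent. Epha5, Epha6, Epha8, Epha10 and Ephb1 had an FPKM under 0.1 in every grouped library, and Epha3 and Efna5 in every WT and P-Rspo3 library. In Apc against WT 7 were tested and 2 were called higher, the A-class receptor Epha3 and ligand Efna5, where 12.2% of all genes were. Both reached the 0.1 FPKM needed for testing only in Apc libraries, so they could only come out higher. Neither was called with limma on log2(FPKM + 1), which gave 0.76 for Epha3 and 0.72 for Efna5. Of the 5 tested in P-Rspo3 against WT, edgeR called 0, beside 0.00625% of all genes higher and 0% lower. DESeq2 called Epha7.

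Epha3 had 3, 1, 2, 1 and 1 counts in WT, 377, 164, 52 and 90 in Apc and 0, 2, 3 and 1 in P-Rspo3. Efna5 had 0, 0, 1, 2 and 0 counts in WT, 144, 77, 58 and 89 in Apc and 0, 0, 0 and 0 in P-Rspo3. Both were above every other library in each Apc library, though with at most 1.65 FPKM. The ratio of summed CPM, Apc to WT, was 81.3 for Epha3 (95% interval for counting error 41.0 to 189) and 117 for Efna5 (39.6 to 569), with adjusted p of 1.97e-05 and 3.18e-06 by edgeR's quasi-likelihood test. Against P-Rspo3, where it had 0 counts in all libraries, Efna5 was at least 94.5-fold higher, taking 3 counts over the group as the floor.

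Efna4, an ephrin-A that lies next to Efna1 and Efna3 on chromosome 3, had the opposite sign to both in Apc against WT. Its FPKM was 12.5, 12.6, 10.0, 13.1 and 8.48 in WT, 24.0, 21.2, 24.2 and 20.9 in Apc and 10.8, 8.44, 10.3 and 7.82 in P-Rspo3. It was higher in every Apc library than in any other, with a log2FC of 0.70 against WT (SE 0.12, adjusted p = 0.000429), not called, and 1.01 against P-Rspo3 (SE 0.11, adjusted p = 4.62e-05), called. The latter fell under the fold threshold when any of Apc replicates 1 and 5 and P-Rspo3 replicates 4d and F was left out, to 0.95 at the lowest. Efna3 had a log2FC of -0.71 against WT (SE 0.29, adjusted p = 0.0571), not past the threshold, and 0.03 against P-Rspo3 (SE 0.28, adjusted p = 0.953). The genes Efna1 (89271733 to 89281142), Efna3 (89313899 to 89322965) and Efna4 (89333390 to 89338028) lie in a row on the minus strand. The antisense gene 4731419I09Rik overlaps 10.5% of the exon length of Efna4, and another, Gm15998, overlaps 14.1% of that of Efna3.

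Epha7, an A-class receptor, had the largest log2FC of the family genes tested in P-Rspo3 against WT. Its FPKM was 1.38, 0.556, 0.203, 0.598 and 0.644 in WT, 0.379, 0.594, 0.493 and 0.266 in Apc and 1.77, 2.06, 2.401 and 0.937 in P-Rspo3. Of the P-Rspo3 libraries, 3 lay above WT and F lay within it, and all 4 lay above Apc. The log2FC was 1.42 against WT (SE 0.37, adjusted p = 0.149), not called with edgeR but called with DESeq2 (adjusted p = 0.0071). Apc against P-Rspo3 gave -2.37 (SE 0.34, adjusted p = 0.000307), called lower, but with limma on log2(FPKM + 1) it was -0.94, which ends the call. Apc against WT gave -0.96 (SE 0.36, adjusted p = 0.0399), just short of the fold threshold, and it was called lower in 4 alternatives, with -1.14 without WT replicate 5, -1.12 without Apc replicate 2, -1.06 without the dox-naive WT library and -1.10 with the conflicting libraries placed by genotype.

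**Figure D5:**
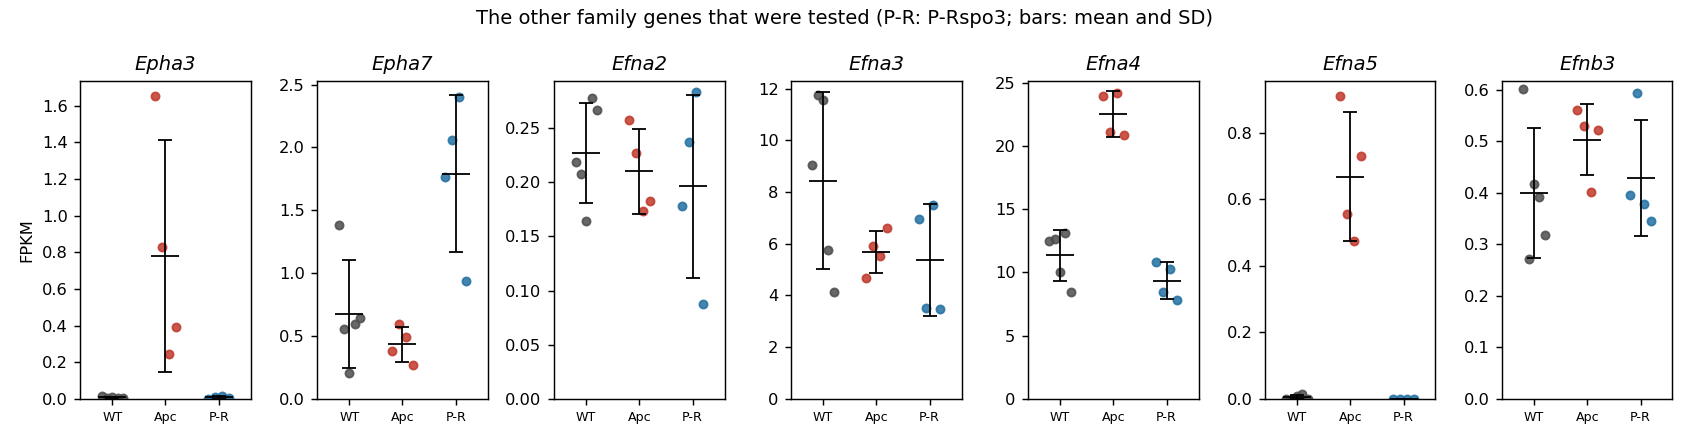
FPKM (vertical axes, linear, from 0, and different in each panel) of the 7 other family genes that were tested, by library, with the mean and SD of the 5 WT, 4 Apc and 4 P-Rspo3 libraries. Epha3, Efna4 and Efna5 lie above WT in all 4 Apc libraries, and Epha7 lies highest in 3 P-Rspo3 libraries.

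The genes that pass the signal on were examined next. Of 24 genes for forward signalling from Eph receptors, such as Src-family kinases, adaptors and exchange factors of small GTPases, 23 were tested in Apc against WT. Of these 1 was called higher and 1 lower, where 12.2% and 14.1% of all genes were. By the adjusted p alone 5 were higher (30.0% of all genes) and 7 lower (29.0%). Called higher was Tiam1, a Rac exchange factor, with a log2FC of 1.27 (SE 0.16, adjusted p = 4.37e-05), and called lower was the kinase Fyn, with -1.24 (SE 0.22, adjusted p = 0.000562). The median of the list was -0.07. In Apc against P-Rspo3, 2 of 23 were called higher and 1 lower, where 13.4% and 13.3% of all genes were. Among those higher was the Rac GTPase-activating protein Chn1, with a log2FC of 1.64 (SE 0.51, adjusted p = 0.0207). It had low counts, 4 to 20 in P-Rspo3 and 24 to 59 in Apc.

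Of 15 genes for reverse signalling from ephrins and for cleavage, 2 were called higher and 0 lower in Apc against WT, beside the same 12.2% and 14.1% of all genes, with a list median of -0.05. They were Grip1, a PDZ scaffold that binds the tail of ephrin-B, with a log2FC of 3.61 (SE 0.38, adjusted p = 1.42e-05), and Pdzrn3, a PDZ and RING finger protein, with 3.003 (SE 0.26, adjusted p = 2.95e-06). Grip1 had 3 to 14 counts in WT and 89 to 184 in Apc, where its FPKM was at most 0.751. It reached the 0.1 FPKM needed for testing only in Apc libraries, so it could only come out higher. The sheddase Adam10 and the gamma-secretase subunit genes Ncstn and Aph1a were not called in Apc against WT. In P-Rspo3 against WT edgeR called none of the genes in these 2 lists, where 0.00625% of all genes were called higher and 0% lower.

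Of 14 further Wnt targets of the crypt, 12 were called higher and none lower in Apc against WT, where 12.2% and 14.1% of all genes were, with a median log2FC of 1.94, beside 0.70 for Ephb2 and 0.56 for Ephb3. They included Notum with 6.79 (SE 0.52), Prox1 with 6.73 (SE 0.33), Nkd1 with 6.48 (SE 0.47) and Lef1 with 4.35 (SE 0.40). In P-Rspo3 against WT none were called by edgeR, and 12 of the 14 log2FC were negative, with a median of -0.38.

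Markers of cell types moved with the Apc group too. Of all genes tested in Apc against WT, 12.2% were called higher and 14.1% lower. All 11 enterocyte markers were called lower in Apc against WT, their summed FPKM being 161 to 201 in Apc and 8477 to 16560 in WT, with Lct under 0.1 in every Apc library. Of 6 goblet markers 5 were called lower (sum 138 to 325 against 914 to 1333), of 6 Paneth markers 5 lower and Mmp7 higher (651 to 1566 against 6198 to 9866) and of 6 stem cell markers 4 higher and Olfm4 lower. Of 7 enteroendocrine markers 5 and of 5 tuft markers 3 were called lower. The endothelial list summed to 5.87 to 13.2 in Apc and 0.541 to 1.03 in WT. Of its 6 genes Cdh5, Vwf and Tek were called higher, while Pecam1 was called lower, with a log2FC of -2.95, and Kdr and Emcn were under 0.1. Of 8 mesenchymal markers, Pdgfra was called higher, with 4.504, and Pdgfrb lower, with -3.63 (sum 0.255 to 0.926 in Apc and 0.0760 to 0.210 in WT), and Thy1, which had 0 counts in WT, reached 0.532 FPKM in Apc. Of 6 immune markers, Cd68 was called higher, with 2.55, and Itgam lower, with -2.54 (sum 3.90 to 10.5 in Apc and 1.78 to 3.29 in WT), while Ptprc, Cd3e and Adgre1 were under 0.1 in Apc. Cdh5 and Pdgfra passed the filter on low values only through Apc. Lct, Pdgfrb and the tuft markers Dclk1 and Gfi1b passed it only through WT. Entry of this kind leaves little room for the opposite direction. The part of the marker shifts in the values of the Eph receptors and ephrins was not tested.

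Finally, the genes most like the crypt receptors and the ephrin-B ligands were sought by the root mean square difference of log2 CPM profiles relative to the WT mean, over 13 libraries and 12555 genes with at least 1 FPKM in at least 4 libraries. For Ephb2 they were Spag5 (0.0536), Pex26 (0.0724) and Cdca7l (0.0783), and for Ephb3 Dok1 (0.139), Cdca7 (0.159) and Pim3 (0.160). For Efnb1 they were Uap1 (0.0954), Stk40 (0.0980) and Zbtb7b (0.107), and for Efnb2 Ttyh2 (0.142), Myh14 (0.161) and Bcar1 (0.167). The closest profile to Ephb2 thus differed from it by about 0.05 log2 units per library, and the closest to Efnb2 by about 0.14. The libraries share a group structure, so the likeness is a description.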

How the data were processed

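The deposited counts are whole numbers of reads per gene that the authors obtained with HTSeq 0.6.0 after STAR alignment to GRCm38, without normalization. The deposited FPKM values were estimated by the authors with Cufflinks 2.2.1. The annotation release and the strand setting are not given in the sources used here. Of 43629 genes in the count table, 43437 also had FPKM values and 42462 received a symbol from GENCODE M21, whose GRCm38 coordinates are printed.

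Counts were fitted with edgeR 4.0.16 in R 4.3.3 (TMM, glmQLFit and glmQLFTest at their defaults), on the 2 groups of each comparison. Only genes that reached 0.1 FPKM in a number of libraries equal to the size of the smaller group were fitted. The fits were tested on simulated data. DESeq2 1.42.0, limma 3.58.1 on log2(FPKM + 1) and log2(FPKM + 0.1), other filters and scalings, and each library left out in turn were alternatives. Intervals of count ratios are exact binomial ones at 95%, and they and the floor of 3 counts cover counting error only. TMM scaling and FPKM differ: on log2(FPKM + 1) the median gene in Apc against WT had a log2 fold change of 0.17, beside 0.001 after TMM, so FPKM ratios read higher.

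The 10 members and all gene lists were chosen with earlier results of these data known. Other genes were named if called, at most 4 per list and comparison by size, or for likeness to Ephb2, Ephb3, Efnb1 and Efnb2. Overlapping genes, Rspo3, Apc, markers that were not called and family genes that were not called were added for what they check.

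Groups came from the genotype labels, and no column of the tables lacked a sample (0 unmatched). Nothing in the labels says that P-Rspo3 libraries came from separate animals, so p-values measure the spread between these libraries, which may be technical. No pair of libraries agreed within sampling noise, the smallest chi-square being 22.8 per gene. By the titles, WT and Apc libraries of the same number derive from 1 line. Their deviations from the group means correlated with a median of 0.094 (0.016 to 0.200 over 4 pairs), beside -0.031 over the 12 other pairs.

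Promoters came from RefSeq, and all 10 members were matched. Protein sequences were not used here.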

Additional observations from a re-analysis of the deposited data

Results flagged for a closer look

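FPKM of Ephb6 in P-Rspo3 replicate 15d was 0.0423, where the other 3 P-Rspo3 libraries had 0 to 0.00635. It stood far from the others of its group, on 1 count. FPKM of Epha1 in P-Rspo3 replicate F was 14.5, beside 11.6 to 12.0 in the others, and it too stood far from its group. Of 30 groups examined in this way 2 held such a library, and chance sets apart about 1 group in 20.

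In the 2 libraries whose labels conflict, Efnb2 was above the highest WT library, which had 23.8. It was 24.1 in the library titled LIPO and 26.8 in the library titled NAIVE_F.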

How the results depend on the processing

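Across the alternatives run, Ephb6, Epha4, Epha2 and Efna1 kept their direction and their call in both comparisons of Apc. Of these, Ephb6 passed the FPKM filter only through the Apc libraries. Wherever that filter was used it could only come out higher, so its constancy there carries no weight. In Apc against WT, Efnb1 was called in 16 of 19 alternatives and Epha1 in 18, and leaving out 1 library gave 3 members higher and 2 to 4 lower (2 without WT replicate 2, 4 without Apc replicate 1). In Apc against P-Rspo3 that gave 3 to 4 higher (4 without Apc replicate 1) and 2 lower. With the line number as replicate block, in a fit that also leaves out the dox-naive WT library, 3 members were called higher and 3 lower, as without it, and no call of a member changed, while the adjusted p of Ephb4 was 0.0958, and 0.0588 without that library alone. Depth limits the size of the differences of Ephb6, Epha3 and Efna5, which had at most 4 counts in a library outside Apc.

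By adjusted p alone, Apc against WT gave 6 members and 5028 genes higher and 4864 lower, and Apc against P-Rspo3 gave 6 members and 4719 genes higher and 4 members and 4557 genes lower. With limma on log2(FPKM + 1), 1 member was called lower in each of these comparisons, with 1132 genes lower in the first and 1430 higher and 1124 lower in the second, and on log2(FPKM + 0.1) 1 member was lower in the second. On log2(FPKM + 0.1) the share of calls that were higher was 59.9% in the first, beside 46.4% after TMM, and 61.2% in the second, beside 50.3%. At an FPKM of at least 1, 1184 and 1264 genes were higher.

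In P-Rspo3 against WT the main count was 1 gene higher and 0 lower. It was 55 and 173 with DESeq2, 2 and 4 with the newer quasi-likelihood form, 2 and 11 without the FPKM filter, 11 and 63 with all 3 groups in 1 fit, 3 and 4 with limma on log2(FPKM + 1) and 2 and 1 on log2(FPKM + 0.1). It ranged from 1 to 166 higher and from 0 to 100 lower when single libraries were dropped, the highest of both without the dox-naive WT library. The count was also 9 lower without WT replicate 1, and 3 higher and 7 lower without P-Rspo3 replicate M.

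The signs of log2 fold changes near 0 varied. For Ephb2 in P-Rspo3 against WT the value was 0.0135 with the conflicting libraries placed by genotype, and -0.0562 to 0.0882 with 1 library left out. For Efnb3 leaving out 1 library gave -0.0491 to 0.227 in Apc against WT, -0.122 to 0.263 in P-Rspo3 against WT and, in Apc against P-Rspo3, -0.0913 to 0.198, where limma gave 0.076 and 0.206. For Efna2 it was 0.0025 in P-Rspo3 against WT with the libraries by genotype, and in Apc against P-Rspo3 0.0185 and 0.106 with limma and -0.295 to 0.15 with 1 library left out. For Efna3 in Apc against P-Rspo3 it was -0.0815 by genotype and -0.148 to 0.246 with 1 library left out. TMM CPM, unlike FPKM, are not scaled to gene length, so a ratio between genes is in another unit. From TMM CPM in place of FPKM, the ratio of B receptors to ephrin-B was 2.13 in WT, 5.75 in Apc and 2.22 in P-Rspo3. From FPKM with 1 library left out, the ratio was 1.495 to 1.68, 4.02 to 4.45 and 1.56 to 1.70. The cause of these changes was not tested.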

Other observations

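The library titled NAIVE_F has the genotype P-Rspo3 and EN medium in its labels, and it had 729 counts of Rspo3. The library titled LIPO is labelled dox-naive and had 0. In LIPO the FPKM of the B receptors was 20.2 for Ephb2, 9.79 for Ephb3 and 25.8 for Ephb4, and in NAIVE_F it was 26.3, 10.4 and 27.6. Epha2 was 4.75 in LIPO and 5.65 in NAIVE_F, Epha4 was 0.294 and 0.584, and Epha1 was 13.5 and 13.8. Efna1 was 90.1 and 85.1. The ratio of B receptors to ephrin-B was 1.32 in LIPO and 1.31 in NAIVE_F. In neither library did a receptor that rose in Apc reach the lowest Apc library.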
